A study of Mus musculus with 9 samples.

Results

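The genes described are 40 genes of the cell division programme, from the replication helicase to the proteins that separate chromosomes and cells. They were chosen by gene name as a textbook set, with earlier results of these data known, and all 40 were found among the 22564 protein-coding genes of the deposited lung table. By their textbook roles 26 act mainly in G2 and mitosis (G2/M), and 14 act at entry into S phase and in DNA synthesis (G1/S). The samples were lungs of mice of the GFP-LC3 strain, which carries the autophagy protein LC3 fused to green fluorescent protein; the promoter of the fusion is not stated in the labels. All 9 samples came from this strain, sham included. In 3 libraries the mice had their whole brain X-irradiated with 10 Gy on 3 occasions 1 week apart, in 3 they had received 10 Gy to the whole brain on a single occasion, and in 3 they were sham irradiated; the dose rate was 2 Gy per min. The series asks what happened in the lung, an organ outside the field. The labels give no age or sex of the mice, no interval between exposure and tissue collection and no schedule for the sham group, so a difference in age or handling cannot be told apart from exposure. They number the libraries without stating that each came from a separate animal, and p-values measure the spread between these samples.

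Cells that enter division transcribe these genes in waves. Release of E2F factors from the retinoblastoma protein starts the G1/S wave, which supplies licensing factors, the MCM helicase and deoxynucleotides, and the MuvB complex with B-Myb and FoxM1 drives the G2/M wave of mitotic cyclins, kinases, motors and kinetochore proteins. In resting cells the DREAM complex holds both waves down through sites at the start of the genes. Most cells of the adult lung are at rest, and the transcripts come from the minority that divide, which in textbook accounts include macrophages, lymphocytes, endothelial cells and alveolar type 2 cells.

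The sites that separate the waves can be read in the promoters, and 6 of them are shown because values are given for G2/M genes and G1/S genes apart. RefSeq windows on the mouse build GRCm38.p6, from 250 bases before to 50 bases after the start, were available for 33 of the 40 genes. Searched on both strands were the CHR element (TTTGAA or TTCGAA), the CCAAT box (CCAAT) and the E2F element (TTCCCGC or TTGGCGC); a reverse CCAAT box, which reads ATTGG, can share letters with the last of these. A CHR match was present in 17 of 21 G2/M genes and 3 of 12 G1/S genes, against 19.2% of all 32851 windows. An E2F match was present in 3 of 21 G2/M genes and 6 of 12 G1/S genes, against 6.81% of all windows, and a CCAAT match in 18 of 21 and 9 of 12, against 37.4%. A match describes the letters only. The 130 bases before the start are given 5′ to 3′ on the strand of the gene, in lower case with each match in capitals; a reverse CHR match reads TTCAAA. They lie at chr7:135716380-135716509 (minus strand) for Mki67, chr7:80294346-80294475 (plus) for Prc1, chr4:118437344-118437473 (minus) for Cdc20, chr19:37376252-37376381 (plus) for Kif11, chr7:102441565-102441694 (plus) for Rrm1 and chr1:128359706-128359835 (minus) for Mcm6.
Mki67: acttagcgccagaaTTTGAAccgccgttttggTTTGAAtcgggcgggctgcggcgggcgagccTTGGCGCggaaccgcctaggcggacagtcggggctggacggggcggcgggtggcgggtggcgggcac
Prc1: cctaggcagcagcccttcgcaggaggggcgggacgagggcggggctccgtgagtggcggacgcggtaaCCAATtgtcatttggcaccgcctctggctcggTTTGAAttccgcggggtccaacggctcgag
Cdc20: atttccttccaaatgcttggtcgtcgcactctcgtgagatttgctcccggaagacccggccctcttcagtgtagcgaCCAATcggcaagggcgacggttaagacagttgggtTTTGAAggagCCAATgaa
Kif11: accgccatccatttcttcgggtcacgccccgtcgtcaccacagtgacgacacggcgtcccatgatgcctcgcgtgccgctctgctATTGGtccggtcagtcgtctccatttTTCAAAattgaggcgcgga
Rrm1: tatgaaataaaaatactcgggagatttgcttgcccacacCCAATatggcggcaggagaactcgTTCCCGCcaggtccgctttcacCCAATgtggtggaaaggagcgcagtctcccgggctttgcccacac
Mcm6: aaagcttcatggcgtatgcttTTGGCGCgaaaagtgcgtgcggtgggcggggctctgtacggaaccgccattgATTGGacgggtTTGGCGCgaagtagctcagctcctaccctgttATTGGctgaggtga
Each of the 4 G2/M promoters held a CHR match. In Cdc20 it began 18 bases and in Kif11 19 bases before the start, with a CCAAT box farther from the start. Cdc20 also held a CCAAT box that began 8 bases before the start. Mki67 held an E2F match and no CCAAT match in the bases shown. The Rrm1 and Mcm6 promoters held E2F and CCAAT matches and no CHR match in these bases.

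The libraries held 5631267, 7381015 and 6153094 fragments after 3 weekly exposures, 6909816, 5747305 and 6415683 in the single-exposure group and 6149154, 5270620 and 4987830 in the sham group. Some stood apart. Library 1 of the single exposure held 8981 CPM (counts scaled to the size of the library with TMM factors) of 5 heart muscle genes, against 56.1 to 485 CPM elsewhere, and its 5 alveolar type 2 markers summed to 3853 CPM, against 8596 to 14194 CPM in the others. It also held 2647 CPM of 4 smooth muscle genes, against 243 to 600 CPM elsewhere, and 519 CPM of 5 endothelial markers, against 1379 to 2609 CPM. The 4 adipocyte markers summed to 542 CPM in weekly library 3 and 439 CPM in library 1 of the single exposure, against 5.24 to 41.3 CPM elsewhere. Sham library 1 held 1901 CPM of 4 skeletal muscle genes, against 0.818 to 112 CPM elsewhere. Mitochondrially encoded transcripts were 5.82% of library 1 after 3 weekly exposures and 7.16% of library 1 after a single exposure, against 1.73 to 3.10% in the other libraries. Library 3 of the weekly group held 0 fragments of each of 4 Y-linked genes, against 131 to 657 fragments of each elsewhere. Among the 39 genes of the programme that were tested, sham library 1 lay between the other sham libraries in 26, and in 71.0% of all genes tested, and the labels do not say whether it is a separate animal. Counts are therefore also given without these libraries.

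After a single exposure, 38 of 39 cell cycle genes tested were higher than in sham by the fitted value (53.8% of all genes were), by a median of 0.90 on the log2 scale, against 0.03 over all genes. After 3 weekly exposures, 33 of 39 were higher (52.4% of all genes), by a median of 0.52 against 0.02. None passed the test after adjustment: edgeR's quasi-likelihood test called 0 of 14074 genes (0.0%) in each of these comparisons at a Benjamini-Hochberg adjusted p under 0.05. At an unadjusted p under 0.05, which is no call, 18 of 39 genes stood higher after a single exposure, 46.2% against 6.6% of all genes, and 0 lower, against 5.43% of all genes. The same count after 3 weekly exposures was 6 of 39, 15.4% against 4.26%, with 0 lower against 3.64%. In bulk tissue a different number of dividing cells and a different amount of RNA per cell cannot be told apart.

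**Figure D1:**
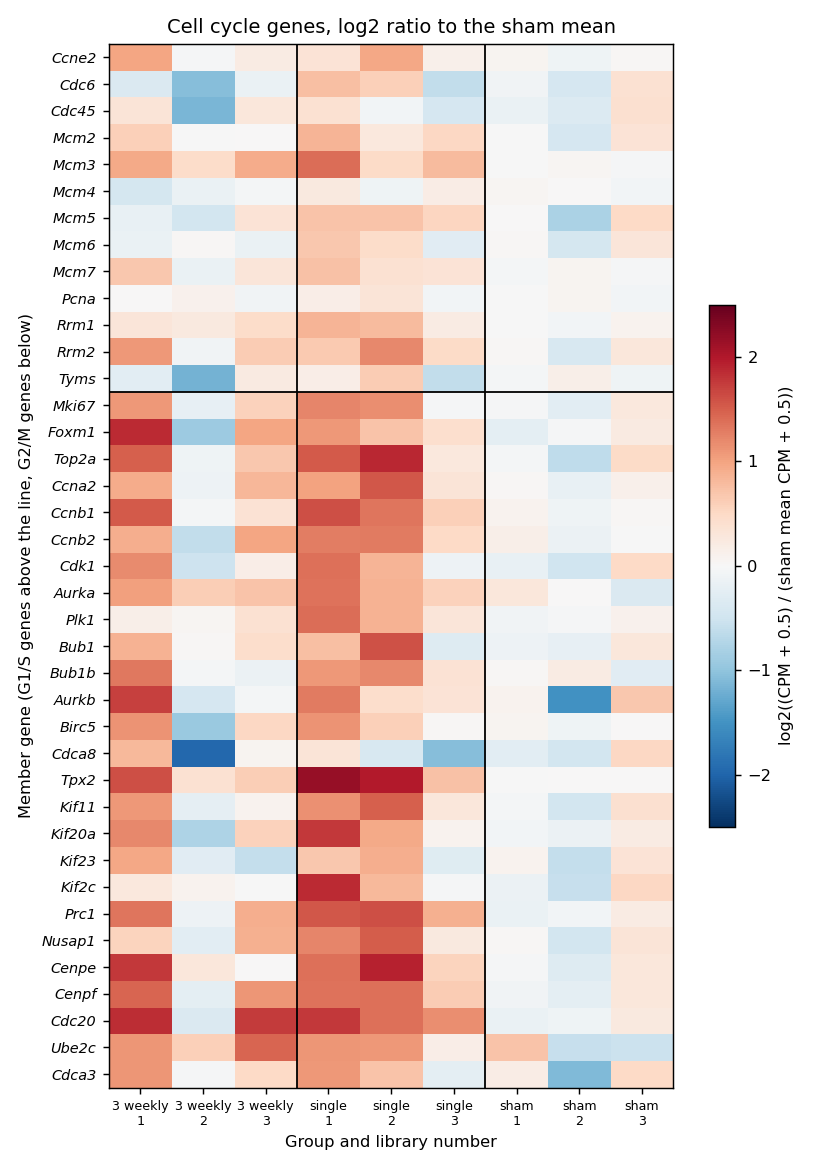
Colour map of log2((CPM + 0.5) / (sham mean CPM + 0.5)) for the 39 genes tested (rows) in the 9 libraries (columns, grouped as 3 weekly exposures, single exposure and sham). The G2/M genes, under the horizontal line, are red in library 1 of the weekly group and in libraries 1 and 2 of the single exposure, with library medians of 1.11, 1.29 and 1.18, while library 2 of the weekly group has a median of -0.16.

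The irradiated libraries were not alike. Over the 26 G2/M genes the library medians of the log2 ratio to the sham mean were 1.11, -0.16 and 0.54 after 3 weekly exposures, 1.29, 1.18 and 0.29 in the single-exposure group and -0.03, -0.23 and 0.25 in sham. So library 2 of the weekly group and library 3 of the single exposure were within or near the sham range, and the others were above it. Over the 13 G1/S genes tested the medians were 0.31, -0.08 and 0.23 in the weekly group, 0.67, 0.48 and 0.18 in the single-exposure group and -0.01, -0.10 and 0.08 in sham, the same order of libraries within each group at smaller sizes. Summed, the G2/M genes had 544, 196 and 350 CPM after 3 weekly exposures, 574, 589 and 267 CPM after a single exposure and 221, 180 and 274 CPM after sham irradiation.

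**Figure D2:**
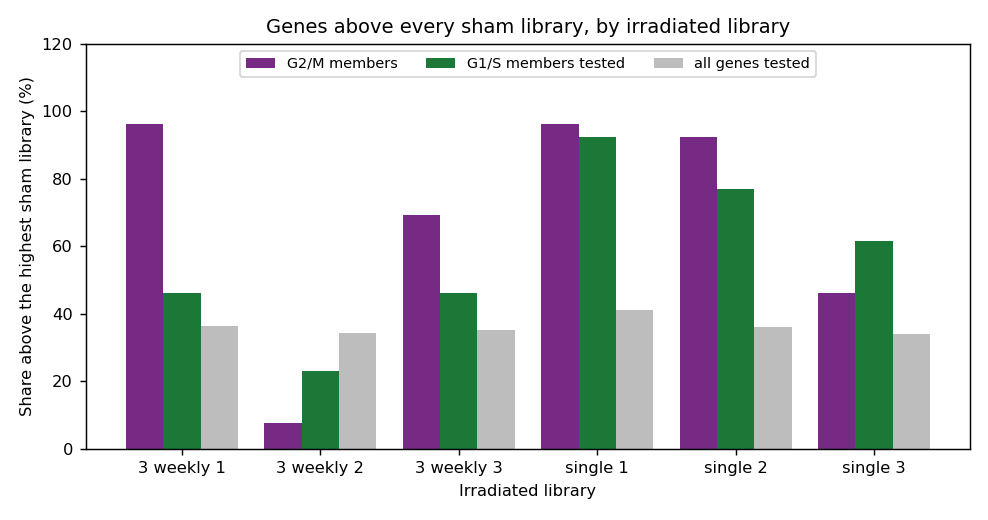
Share of genes (percent) whose level in an irradiated library was above the highest sham library, for the 26 G2/M genes, the 13 G1/S genes tested and all 14074 genes tested. Library 2 of the weekly group is the one in which both shares are below that of all genes.

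Counted gene by gene, 31, 5 and 24 of 39 genes lay above the highest sham library in weekly libraries 1 to 3, where 36.5%, 34.4% and 35.2% of all genes did. In the single-exposure libraries the counts were 37, 34 and 20 of 39, where 41.1%, 36.2% and 34.0% of all genes did. Weekly library 2 had the lowest level of its group in 32 of the 40 genes, and 12 of 39 were below the lowest sham library, 30.8% against 34.8% of all genes, which is near the background. Library 3 of the single exposure was the lowest of its group in 36 of 40 genes and in 26 of 26 G2/M genes. The sham libraries had an order too, with library 3 highest in 28 of 40 and library 2 lowest in 28 of 40.

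Levels compared per length ranged from 0.693 FPKM for Ccne1 to 30.6 FPKM for Pcna, as means over the 9 libraries. Pcna, Mcm7 (15.4 FPKM) and Top2a (12.2 FPKM) were the most abundant, and 6 genes had fewer than 10 fragments in at least 1 library (Ccne1, Aurka, Aurkb, Cdca8, Kif2c and Ube2c). Ccne1, which encodes the cyclin that opens S phase, was the gene left out by the filter on low counts. It had 4, 7 and 10 fragments after 3 weekly exposures, 21, 2 and 3 fragments after a single exposure and 8, 5 and 8 fragments after sham irradiation.

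Mki67 (chromosome 7, 135689784 to 135716361, minus strand; GENCODE M21 on GRCm38, as for the genes that follow) encodes Ki-67, the coat protein of mitotic chromosomes that pathologists use to count dividing cells. It had 144, 58.5 and 101 CPM after 3 weekly exposures, 157, 151 and 65.6 CPM after a single exposure and 65.5, 55.6 and 80.3 CPM after sham irradiation. The groups overlapped, because 1 library of each irradiated group lay inside the sham range. The fitted log2 change was 0.59 ± 0.38 for 3 weekly exposures (SE, n = 3 against 3; edgeR adjusted p = 0.765) and 0.89 ± 0.38 for a single exposure (adjusted p = 0.403). Top2a, the topoisomerase that untangles sister chromosomes and the target of etoposide, followed the same libraries, with 80.6, 26.2 and 45.6 CPM after 3 weekly exposures, 82.8, 106 and 34.0 CPM after a single exposure and 27.2, 17.9 and 39.6 CPM in sham. Foxm1, the transcription factor of the G2/M wave, averaged 13.4 ± 10.6 CPM after 3 weekly exposures, 11.1 ± 2.69 CPM after a single exposure and 6.33 ± 1.10 CPM in sham (SD, n = 3 each). In counts its 3 single-exposure libraries were all above sham, and its 3 weekly libraries ran from 3.13 to 24.3 CPM. In the deposited FPKM, which are scaled to length, the groups overlapped, with 6.08, 1.24 and 2.96 FPKM after 3 weekly exposures, 2.87, 3.71 and 1.86 FPKM after a single exposure and 2.74, 1.97 and 4.55 FPKM in sham. The single-exposure mean was then below sham, at 2.81 against 3.09 FPKM, so the direction of Foxm1 depends on which of the deposited values is used.

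**Figure D3:**
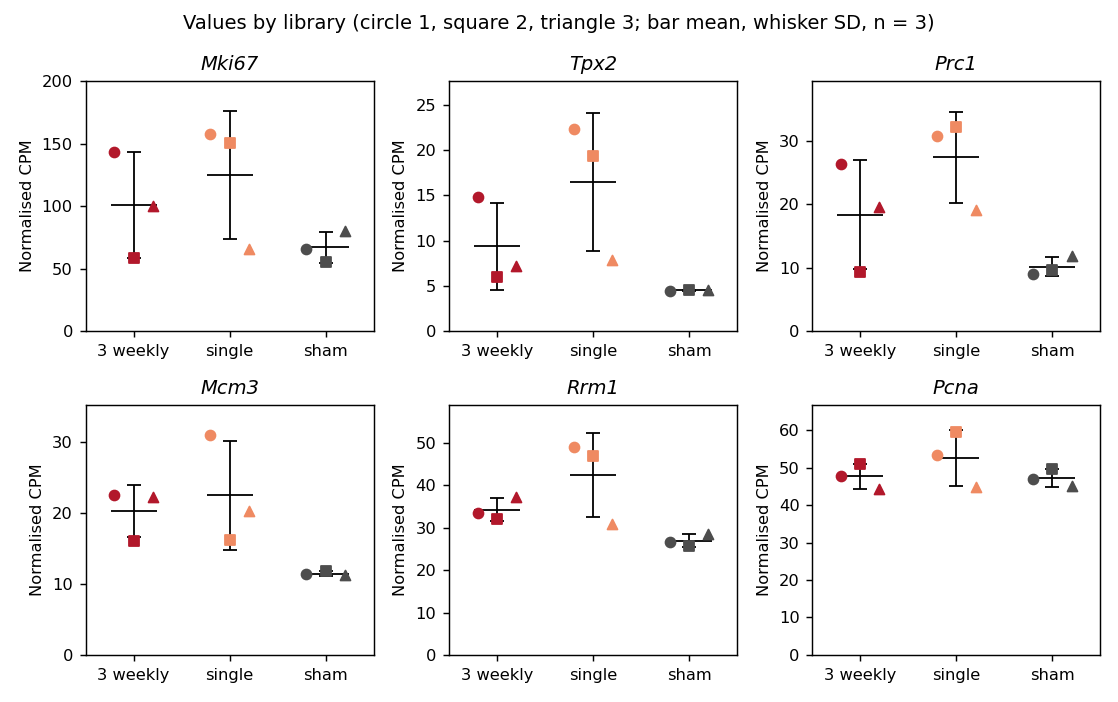
Normalised CPM of 6 genes in each library (circle, square and triangle for libraries 1, 2 and 3), with the group mean (bar) and SD (whisker), n = 3. Mcm3 and Rrm1 are above every sham library in all 6 irradiated libraries, Mki67 overlaps sham in both irradiated groups, and Pcna averages 47.7, 52.6 and 47.3 CPM in the weekly, single and sham groups.

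Among the cyclins and their kinase, Ccna2, the cyclin of S phase and G2, had 22.9, 10.8 and 21.3 CPM after 3 weekly exposures, 24.3, 35.8 and 15.0 CPM after a single exposure and 12.2, 10.4 and 13 CPM after sham irradiation. The single-exposure libraries were all above sham, and the weekly ones overlapped sham through library 2. Its log2 change was 1.08 ± 0.36 for a single exposure (edgeR adjusted p = 0.332) and 0.62 ± 0.36 for 3 weekly exposures (adjusted p = 0.739). Ccnb1 and Ccnb2, the cyclins that carry cells into mitosis, averaged 4.97 ± 3.29 and 4.10 ± 2.26 CPM in the weekly group, 7.05 ± 2.51 and 5.96 ± 1.84 CPM in the single-exposure group and 2.70 ± 0.222 and 2.57 ± 0.311 CPM in sham (SD, n = 3 each). Their partner kinase Cdk1 overlapped sham in both groups and averaged 5.48 ± 3.54, 7.28 ± 3.71 and 3.90 ± 1.60 CPM in the weekly, single and sham groups. With Ccne2, the second E-type cyclin, 4 of the 5 genes tested did not overlap sham after a single exposure, where 10.2% of all genes stood higher without overlap.

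The replication genes had smaller fitted changes, with Mcm3 apart from the others. Mcm3 (chromosome 1, 20802968 to 20820312, minus strand), a subunit of the MCM helicase, had 22.5, 16.1 and 22.3 CPM after 3 weekly exposures, 31.1, 16.2 and 20.3 CPM after a single exposure and 11.4, 11.9 and 11.2 CPM after sham irradiation. All 6 irradiated libraries were above all 3 sham libraries. Its log2 change was 0.82 ± 0.26 for 3 weekly exposures (edgeR adjusted p = 0.498) and 0.97 ± 0.26 for a single exposure (adjusted p = 0.275), and it was the only gene of the 39 at an unadjusted p under 0.05 in all 9 fits that left out 1 library in both comparisons with sham. The other subunits of the same ring did not share this pattern. Mcm4 had 18.7, 22.8 and 24.6 CPM after 3 weekly exposures, 30.2, 23.6 and 29.0 CPM after a single exposure and 26.6, 25.6 and 24.4 CPM in sham. Mcm5 had 11.2, 9.13 and 16.2 CPM after 3 weekly exposures, 21.2, 21.2 and 18.7 CPM after a single exposure and 12.8, 7.16 and 18.3 CPM in sham. Thus Mcm4 in the weekly group reached down to levels under sham, and Mcm5 after a single exposure was above sham by a narrow margin over sham library 3. Mcm2, Mcm6 and Mcm7 had log2 changes of 0.23, -0.10 and 0.31 for 3 weekly exposures and 0.58, 0.35 and 0.51 for a single exposure, with edgeR adjusted p-values of 0.415 or more.

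Pcna, the sliding clamp of the replication fork and also a repair factor, had 47.6, 51.1 and 44.2 CPM after 3 weekly exposures, 53.2, 59.6 and 44.8 CPM after a single exposure and 47.1, 49.8 and 45.1 CPM after sham irradiation. These values overlap throughout, with log2 changes of 0.01 ± 0.15 and 0.15 ± 0.15 (SE, n = 3 against 3). Cdc6, which loads the helicase onto origins, had 2.97, 1.64 and 3.44 CPM after 3 weekly exposures, 6.98, 6.20 and 2.39 CPM after a single exposure and 3.68, 2.83 and 5.31 CPM in sham. Cdc45, which activates the helicase, averaged 4.10 ± 2.13, 4.20 ± 1.31 and 4.20 ± 1.33 CPM in the weekly, single and sham groups (SD, n = 3 each). Of these 9 replication genes, 4 were higher and 5 lower than sham after 3 weekly exposures by the fitted value, and 9 of 9 were higher after a single exposure.

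Enzymes of deoxynucleotide supply divided in the same way. Rrm1, the large subunit of ribonucleotide reductase (chromosome 7, 102441695 to 102469771, plus strand; E2F match in the printed promoter), had 33.5, 32.0 and 37.2 CPM after 3 weekly exposures, 49.2, 47.0 and 31.0 CPM after a single exposure and 26.7, 25.6 and 28.5 CPM after sham irradiation. Every irradiated library was above every sham library, with log2 changes of 0.34 ± 0.19 (edgeR adjusted p = 0.727) and 0.65 ± 0.19 (adjusted p = 0.292). Rrm2, the small subunit whose level limits the enzyme in S phase, averaged 10.1 ± 4.07, 11.6 ± 3.30 and 6.38 ± 1.59 CPM in the weekly, single and sham groups. Tyms, thymidylate synthase, averaged 6.68 ± 3.21, 9.25 ± 3.91 and 8.31 ± 0.822 CPM and overlapped sham in both irradiated groups.

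Among mitotic kinases, Aurka, the kinase of the spindle poles, had 5.41, 3.95 and 4.26 CPM after 3 weekly exposures, 6.98, 4.82 and 3.83 CPM after a single exposure and 3.04, 2.45 and 1.77 CPM after sham irradiation. All 6 irradiated libraries were above sham, at low counts of 24 to 46 fragments against 9 to 19 in sham. The log2 changes were 0.89 ± 0.38 (edgeR adjusted p = 0.614) and 1.09 ± 0.38 (adjusted p = 0.338). Plk1, the kinase that acts with Aurka at mitotic entry, had 3.66, 3.41 and 4.42 CPM after 3 weekly exposures, 9.41, 6.37 and 4.15 CPM after a single exposure and 3.04, 3.20 and 3.54 CPM in sham. It was above sham after a single exposure and overlapped sham after 3 weekly exposures through library 2. Of the spindle checkpoint kinases, Bub1b had 17.6, 6.54 and 6.06 CPM after 3 weekly exposures, 14.9, 16.2 and 8.78 CPM after a single exposure and 6.89, 7.92 and 5.51 CPM in sham. Its partner Bub1 averaged 7.33 ± 2.31, 9.77 ± 6.22 and 5.09 ± 1.06 CPM in the weekly, single and sham groups and overlapped sham in both.

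In the chromosomal passenger complex, which corrects faulty spindle attachments, 0 of 3 genes were free of overlap with sham in either comparison; with 10.8% and 10.2% of all genes higher without overlap after 3 weekly exposures and a single exposure, this count is near the background. Birc5, also known as survivin, had 9.42, 1.91 and 6.06 CPM after 3 weekly exposures, 9.41, 6.37 and 4.15 CPM after a single exposure and 4.32, 3.77 and 4.13 CPM after sham irradiation. Its kinase Aurkb averaged 4.55 ± 4.23, 4.65 ± 2.02 and 2.54 ± 1.89 CPM in the weekly, single and sham groups. Cdca8, or borealin, averaged 3.65 ± 3.04, 2.86 ± 1.58 and 3.55 ± 1.54 CPM and was the 1 gene of 39 with a fitted value under sham after a single exposure, at -0.30 ± 0.77. Without sham library 3 that value was 0.097, and without library 3 of the single exposure 0.014. Counts went down to 3 fragments for Aurkb and 4 for Cdca8 in a library.

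Spindle and cytokinesis genes held the largest fitted change of the 39. Tpx2 (chromosome 2, 152847964 to 152895321, plus strand), which nucleates microtubules around chromosomes and activates Aurora A, had 14.8, 6.0 and 7.21 CPM after 3 weekly exposures, 22.3, 19.3 and 7.82 CPM after a single exposure and 4.48, 4.52 and 4.53 CPM after sham irradiation. Every irradiated library was above every sham library, and the sham values were nearly identical. Its change for 3 weekly exposures was 1.04 ± 0.46 (edgeR adjusted p = 0.628), and its adjusted p for a single exposure was 0.240. Prc1 (chromosome 7, 80294450 to 80316259, plus strand), which bundles the microtubules of the spindle midzone, had 26.3, 9.27 and 19.5 CPM after 3 weekly exposures, 30.8, 32.2 and 19.2 CPM after a single exposure and 8.97, 9.61 and 11.8 CPM in sham. Its log2 changes were 0.85 ± 0.37 (adjusted p = 0.626) and 1.43 ± 0.37 (adjusted p = 0.251), and its weekly libraries overlapped sham through library 2. By DESeq2, run as an alternative, Tpx2 (adjusted p = 0.0190) and Prc1 (adjusted p = 0.0307) were called higher after a single exposure, among 198 genes or 1.41% of those tested, and 0 of 39 cell cycle genes were called after 3 weekly exposures, where 0.632% of all genes were. Prc1 overlaps Rccd1, and the strand setting of the counting is not given in the sources used here, so part of its count may belong to that gene.

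The mitotic motors were higher by the fitted value in both comparisons. Kif11, the motor that pushes spindle poles apart, averaged 14.7 ± 7.59, 23.1 ± 9.22 and 10.8 ± 3.34 CPM in the weekly, single and sham groups (SD, n = 3 each). Kif2c, which takes microtubules apart at kinetochores, had 2.09, 1.77 and 1.64 CPM after 3 weekly exposures, 7.28, 3.27 and 1.60 CPM after a single exposure and 1.44, 0.942 and 2.56 CPM after sham irradiation. Its high value was in library 1 of the single exposure, and the other groups overlapped. Kif20a and Kif23, motors of the midzone, and Nusap1, a microtubule binder, had log2 changes of 0.57, 0.20 and 0.50 for 3 weekly exposures and 1.16, 0.53 and 1.13 for a single exposure.

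Both kinetochore genes, which link chromosomes to microtubules, were above sham in every single-exposure library (10.2% of all genes were). Cenpf had 34.2, 10.2 and 26.9 CPM after 3 weekly exposures, 32.0, 32.2 and 19.2 CPM after a single exposure and 11.4, 10.2 and 15.0 CPM after sham irradiation. Its log2 changes were 0.96 ± 0.41 (edgeR adjusted p = 0.624) and 1.19 ± 0.41 (adjusted p = 0.340). Cenpe, the kinetochore motor, averaged 9.95 ± 7.43, 14.1 ± 6.50 and 5.07 ± 1.17 CPM in the weekly, single and sham groups.

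Genes for the destruction of mitotic proteins included Cdc20, the activator of the anaphase-promoting complex (chromosome 4, 118432901 to 118437352, minus strand), with 12.4, 2.32 and 11.6 CPM after 3 weekly exposures, 11.7, 8.78 and 7.50 CPM after a single exposure and 2.72, 2.83 and 3.74 CPM after sham irradiation. Weekly library 2 was under all 3 sham libraries, and the other 5 irradiated libraries were above them. The log2 changes were 1.49 ± 0.56 (edgeR adjusted p = 0.560) and 1.59 ± 0.56 (adjusted p = 0.343), and Elovl1 overlaps this gene. Ube2c, the ubiquitin-conjugating enzyme of that complex, averaged 3.46 ± 1.14, 2.84 ± 1.08 and 1.37 ± 1.03 CPM in the weekly, single and sham groups. Cdca3, an adaptor that promotes mitotic entry, had 11.3, 4.91 and 7.37 CPM after 3 weekly exposures, 11.2, 8.61 and 4.15 CPM after a single exposure and 5.77, 2.07 and 7.28 CPM in sham, with overlap in both comparisons.

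**Figure D4:**
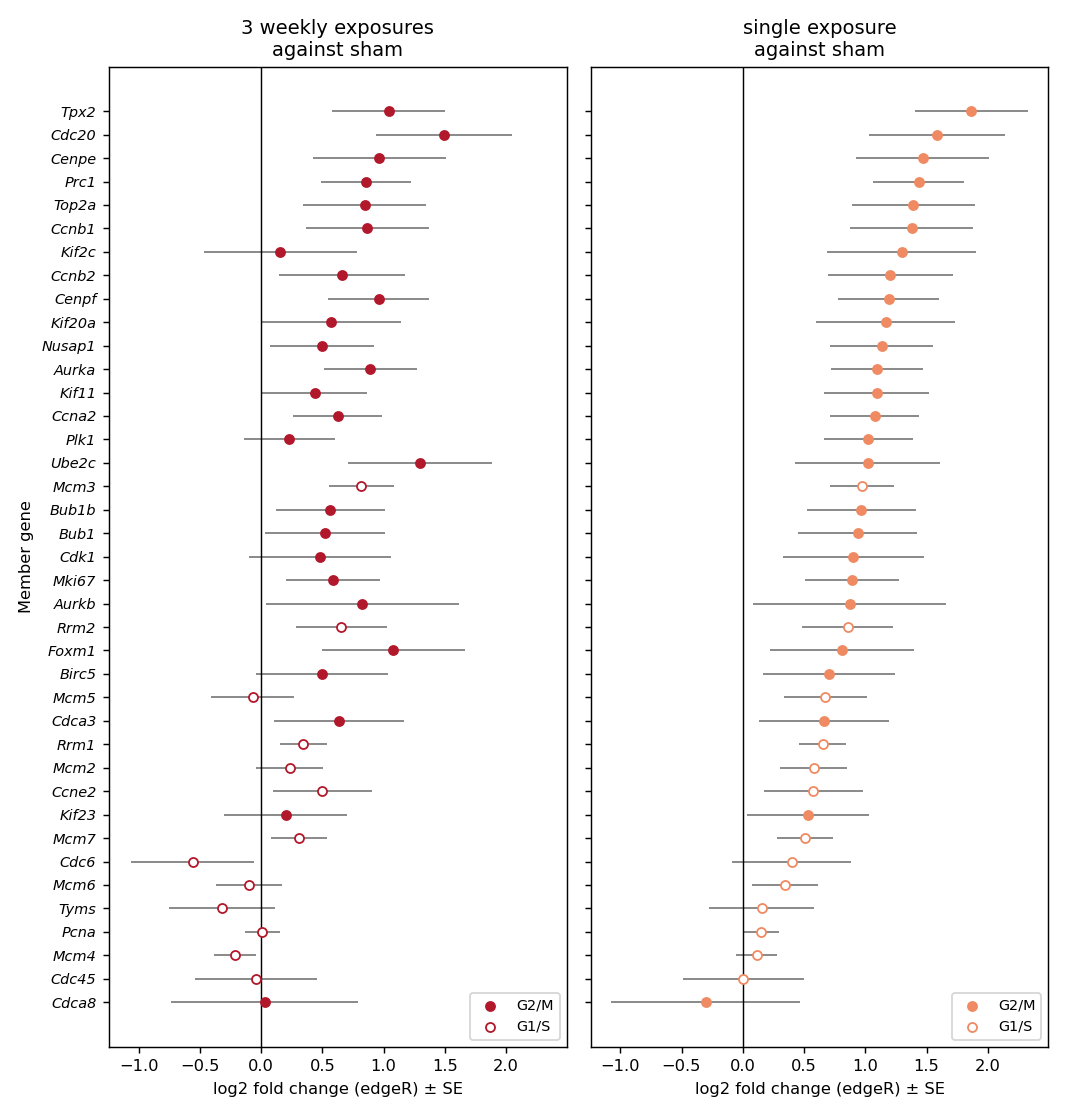
Fitted log2 fold change (edgeR) with its SE for the 39 genes tested, in the order of the single-exposure change, for 3 weekly exposures against sham (left) and a single exposure against sham (right). Filled points are G2/M genes and open points G1/S genes. On the right 38 of 39 points are above 0, and on the left the 6 points below 0 are all G1/S genes.

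By phase, 14 of 26 G2/M genes and 4 of 13 G1/S genes were higher at an unadjusted p under 0.05 for a single exposure, against 6.6% of all genes, with medians of 1.08 and 0.51. At 2-fold or more there were 16 G2/M genes and 0 G1/S genes, against 5.27% of all genes. For 3 weekly exposures 26 of 26 G2/M genes stood above sham by the fitted value, at a median of 0.63. Without weekly library 1 this held for 19 of 26, at a median of 0.26. The G1/S genes had a median of 0.01, with 7 higher and 6 lower (Cdc6, Cdc45, Mcm4, Mcm5, Mcm6 and Tyms). Their median was 0.34 without weekly library 2 and 0.28 without sham library 3, with 9 of 13 higher in each. In the other fits that left out 1 library it was 0.01 to 0.06. The difference between the phases was not tested.

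How far the counts rest on single libraries was seen by leaving each out. After a single exposure 18 of 39 genes did not overlap sham, higher, against 10.2% of all genes, and 0 lower, against 10.7%. The 18 genes at an unadjusted p under 0.05 became 11 without library 1 of that group (6.75% of all genes), 8 without its library 2 (8.5%), 8 without sham library 1 (2.53%) and 5 without sham library 2 (4.52%). Without sham library 1 and library 1 of the single exposure together, chosen after seeing the data, the count was 4, against 3.09% of all genes, namely Ccna2, Mcm3, Prc1 and Tpx2, while 37 of 39 genes were still higher and the median was 0.65. Mcm3, Prc1, Rrm1 and Tpx2 were past that p in all 9 fits that left out 1 library.

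After 3 weekly exposures 4 of 39 genes did not overlap sham (Mcm3, Rrm1, Aurka and Tpx2), against 10.8% of all genes, and 0 were lower throughout, against 11.1%, so this count was near the background. The 6 genes at an unadjusted p under 0.05 were Mcm3, Cdc20, Aurka, Cenpf, Prc1 and Tpx2. Without weekly library 1 the count was 1 (3.68% of all genes), the median 0.16 and 26 of 39 genes were higher, and without weekly library 2 it was 14 (4.47%) and the median 0.82. Leaving out weekly library 3 gave 3 (3.17%), sham library 1 gave 2 (1.64%), sham library 2 gave 1 (3.29%), sham library 3 gave 3 (2.37%), and library 2 of the single exposure, which enters through the shared spread, gave 2 (5.02%). Without sham library 1 and library 1 of the single exposure together it was 2, against 2.7%. These comparisons use the same 3 sham libraries as those of the single exposure.

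**Figure D5:**
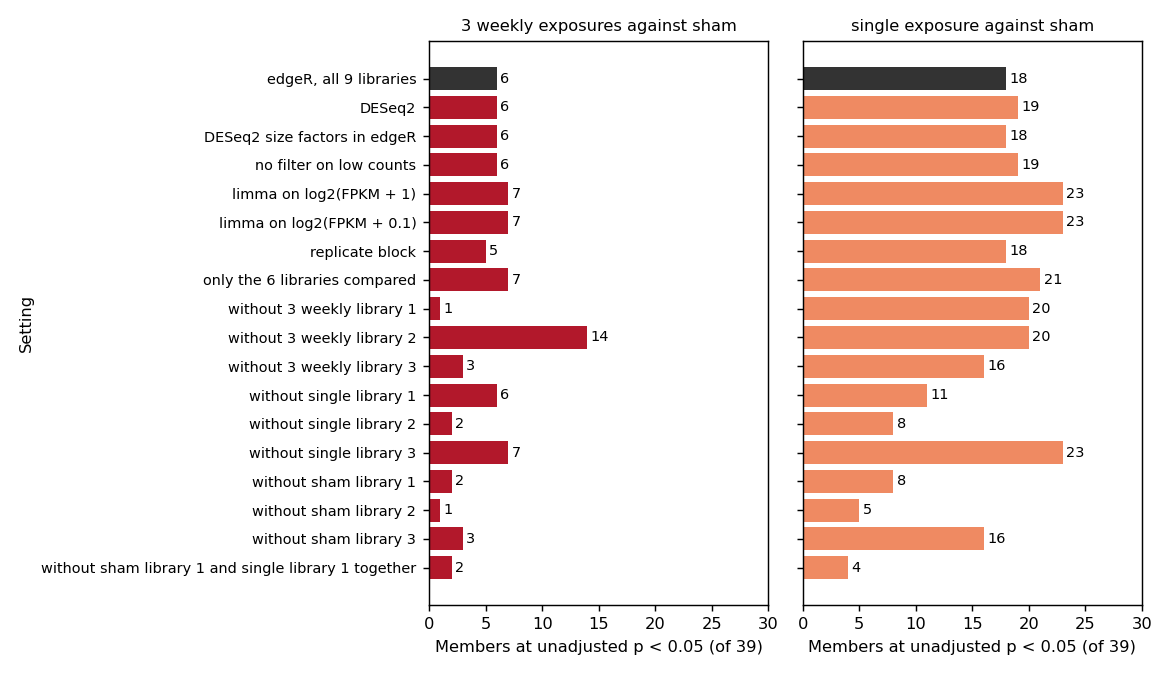
Number of cell cycle genes of the 39 tested at an unadjusted p under 0.05 in each setting, for 3 weekly exposures against sham (left) and a single exposure against sham (right); bars start at 0 and the dark bar is edgeR on all 9 libraries. On the left the counts run from 1 to 14 around 6, and on the right from 4 to 23 around 18.

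Set directly against the single exposure, 3 weekly exposures gave lower fitted values in 36 of 39 genes, with a median of -0.34 against -0.01 over all genes, where 48.3% of all genes were higher. EdgeR called 0 of 14074 genes (0.0%), and DESeq2 called 0 of 39 cell cycle genes and 0.0355% of all genes. At an unadjusted p under 0.05 there were 0 of 39 genes lower, against 3.74% of all genes, and 0 higher, against 2.79%. Mcm5 was the 1 gene whose groups did not overlap, lower in the weekly group, against 3.86% of all genes, and 0 were higher throughout, against 4.1%. Its log2 change was -0.74 ± 0.34 (edgeR adjusted p = 0.754). Plk1 (-0.79 ± 0.36), Cdc6 (-0.96 ± 0.50), Mcm4 (-0.33 ± 0.17) and Kif2c (-1.14 ± 0.59) came next, with adjusted p-values of 0.754 to 0.769. Without library 3 of the single exposure 7 genes were lower at an unadjusted p under 0.05, against 6.55% of all genes, and without weekly library 1 there were 6, against 2.7%. The lack of a call does not show that the schedules act alike.

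Markers of other cells differed between libraries as well, and their part in these results was not tested. The library that led the weekly group in 28 of 40 genes, library 1, also had the highest sum of 6 alveolar macrophage markers measured of 8 listed, at 408 CPM, in a range of 225 to 408 CPM after 3 weekly exposures, 86.5 to 343 CPM after a single exposure and 155 to 182 CPM after sham irradiation. Itgax (244 CPM) and Ear2 (80.4 CPM) made up most of that sum and were highest there. Siglec5 (11.2 CPM), Marco (4.54 CPM) and Ear1 (6.11 CPM) were higher in other irradiated libraries, and Car4 (61.3 CPM) was inside the sham range. In the single-exposure group, library 2 held the high sum of 5 of 5 natural killer markers, at 67.0 CPM. The ranges were 10.0 to 21.4, 6.83 to 67.0 and 13.4 to 18.3 CPM in the weekly, single and sham groups. It also held the high sum of the 6 T cell markers measured of 7 listed, at 90.2 CPM. Here the ranges were 65.9 to 74.9, 72.5 to 90.2 and 58.1 to 70.8 CPM. Cd3d (7.75 CPM), Cd8a (12.1 CPM) and Lck (25.5 CPM) were highest there. Cd3e (14.8 CPM) and Cd3g (8.26 CPM) were each higher in another irradiated library, and Cd4 (21.9 CPM) was inside the sham range. Library 1 of the single exposure had a low macrophage marker sum, though Marco (5.01 CPM) was above every sham library. It held 267 CPM of 6 of 6 B cell markers, in ranges of 100 to 141, 103 to 267 and 101 to 112 CPM. The 4 monocyte markers (4 of 4 measured, none at 0) had 335, 296 and 287 CPM after 3 weekly exposures, 353, 491 and 310 CPM after a single exposure and 259, 291 and 217 CPM after sham irradiation. Within each irradiated group they were highest in the libraries with the highest G2/M medians, which are weekly library 1 and single-exposure libraries 1 and 2. The match did not extend to the other irradiated libraries. Weekly library 3, with a G2/M median of 0.54 and so above sham, had the lowest monocyte sum of its group, inside the sham range. Weekly library 2 and library 3 of the single exposure were within or near sham in the G2/M genes. Their monocyte sums were above every sham library. Different members made up these sums. In weekly library 1 Ccr2 had 198 CPM, while Ly6c2 (8.03 CPM) and F13a1 (20.6 CPM) were at their lowest of the 9 libraries. In library 1 of the single exposure F13a1 had 125 CPM, with Ccr2 (82.1 CPM) inside the sham range and Ly6c2 (28.5 CPM) just under it, and in library 2 Ccr2 (202 CPM) and Ly6c2 (81.3 CPM) were both above every sham library.

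The summed neutrophil and plasma cell markers were lower in most irradiated libraries than in sham. The 6 neutrophil markers, 6 of 6 measured, summed to 88.3, 135 and 83.2 CPM after 3 weekly exposures, 27.9, 83.8 and 549 CPM after a single exposure and 334, 199 and 477 CPM after sham irradiation. Library 3 of the single exposure, the lowest of its group in the G2/M genes, was above all sham libraries, and the other 5 irradiated libraries were below them. Within sham the neutrophil sums and the summed G2/M genes had the same order of libraries. Of 5 plasma cell markers 4 were measured, with sums of 272 to 511, 268 to 553 and 715 to 958 CPM in the weekly, single and sham groups. Igj, the joining chain of secreted antibodies and one of these, had 43.3, 233 and 172 CPM after 3 weekly exposures, 273, 291 and 23.6 CPM after a single exposure and 585, 691 and 498 CPM after sham irradiation. For Igj and for the plasma cell sum, all 6 irradiated libraries were below all 3 sham libraries.

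Precursor cells of other organs divide fast, and their markers were looked at as well. Of thymocyte markers, 6 of 7 were measured and summed to 14.4 to 24.3, 15.3 to 46.3 and 16.0 to 17.9 CPM in the weekly, single and sham groups, with Rag2, a recombinase that defines developing lymphocytes, at 0 in all 9 libraries. Most of this was Themis, at 11.1 to 20.2, 11.3 to 39.8 and 12.8 to 14.5 CPM. Cd8b1 was at 0.942 to 6.03 CPM, and Rag1, Dntt and Arpp21 were at 0 to 1.82 CPM each. The 5 markers of bone marrow myeloid precursors summed to 0 to 1.31, 0.344 to 0.798 and 1.13 to 4.13 CPM, with Ms4a3 at 0 throughout. The 6 erythroid markers summed to 93.6 to 118, 103 to 162 and 84.0 to 107 CPM. Nearly all of this was Tfrc, the transferrin receptor, which other dividing cells also carry, at 87.0 to 114, 99.5 to 156 and 80.3 to 98.6 CPM, and the other 5 markers were at 0.0 to 3.99 CPM each.

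Beyond the 40 genes, 78 other cell cycle genes of a textbook list were in the table and 73 were tested. For a single exposure 61 of 73 were higher with a median of 0.64, and 18 were at an unadjusted p under 0.05, all higher, 24.7% against 6.6% of all genes. The smallest p-values belonged to Pole, the leading-strand DNA polymerase, Nuf2, a kinetochore subunit, and Cdt1, the licensing factor. Pole had 11.2, 7.63 and 10.3 CPM after 3 weekly exposures, 22.8, 20.3 and 9.58 CPM after a single exposure and 5.44, 4.71 and 5.12 CPM after sham irradiation, with a log2 change of 1.78 ± 0.34 for a single exposure (edgeR adjusted p = 0.176). Cdt1 had 7.15, 5.59 and 7.54 CPM after 3 weekly exposures, 8.80, 7.75 and 7.02 CPM after a single exposure and 3.04, 3.58 and 3.74 CPM in sham. Like Mcm3, both were above sham in all 6 irradiated libraries. For 3 weekly exposures 62 of 73 were higher with a median of 0.45 and 9 were higher at an unadjusted p under 0.05, 12.3% against 4.26% of all genes, led by Cep55 (2.20 ± 0.61, edgeR adjusted p = 0.435), which acts in the final cut between daughter cells.

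Genes that act before commitment to division were counted by list. Of 11 genes of the E2F and Rb list, 9 were higher after 3 weekly exposures and 10 after a single exposure, with medians of 0.42 and 0.30. Higher at an unadjusted p under 0.05 were 2 and 3 of them, against 4.26% and 6.6% of all genes, and 4 and 4 did not overlap sham, against 10.8% and 10.2%. E2f3, an activating E2F factor, had 20.6, 14.7 and 17.9 CPM after 3 weekly exposures, 21.4, 19.8 and 13.4 CPM after a single exposure and 9.77, 11.7 and 9.25 CPM after sham irradiation. E2f8, a repressing one, had 10.8, 5.86 and 5.90 CPM after 3 weekly exposures, 9.10, 11.2 and 5.59 CPM after a single exposure and 3.04, 2.64 and 3.94 CPM in sham. Both were above sham in all 6 irradiated libraries and were picked for mention after their values were seen. The 6 G1 cyclins and Cdks had median log2 changes of 0.025 for 3 weekly exposures and -0.0031 for a single exposure, and 0 of them were at an unadjusted p under 0.05 in either, which for 6 genes is near the background. Of the 6 Cdk inhibitors tested, 0 were past that p in either comparison, which for 6 genes is also near the background. Of all genes 4.26% and 6.6% were past it higher and 3.64% and 5.43% lower, after 3 weekly exposures and a single exposure. The log2 changes of the inhibitors ran from -0.42 to 0.59 for 3 weekly exposures and from -0.68 to 0.65 for a single exposure. Cdkn1a, which encodes p21 and is a p53 target, had 105, 82.2 and 59.3 CPM after 3 weekly exposures, 86.9, 50.6 and 69.1 CPM after a single exposure and 89.8, 92.0 and 84.8 CPM after sham irradiation, and overlapped sham in both irradiated groups.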

How the data were processed

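Lung RNA was depleted of ribosomal RNA and sequenced as stranded libraries, per the labels' protocols; per the submitters' processing notes cutadapt 1.9.3 and HISAT2 2.0.4 were used with mm10. For the program and annotation behind the values the sources used here give no name. The authors deposited FPKM and estimated counts for 22564 genes. The deposited counts were multiples of 1 step per library (0.854 to 1.192), with 92.0 to 93.4% of nonzero values within 0.1 of a whole number after division, and were divided by it and rounded. All 9 libraries entered 1 edgeR 4.0.16 quasi-likelihood fit (filterByExpr, 14074 genes, TMM, 6 residual degrees of freedom, common biological coefficient of variation 0.316), with Benjamini-Hochberg adjustment over all genes tested. SE is the absolute log2 change over the square root of F. On simulated counts the fit was tested before use. Alternatives were DESeq2 1.42.0, its size factors, no filter, limma 3.58.1 on log2(FPKM + 1) or log2(FPKM + 0.1), a replicate block, the 6 libraries compared, and leaving out each library. Per-library values were printed for the 5 genes with the smallest p in each comparison, the most abundant gene of each role and Mki67, with every gene of the 40 named. The genes, roles and lists were chosen with earlier results of these data known, so no list is independent evidence. At 2 to 1038 fragments per gene and library, counting error is large for the low genes. The counts of 11 of the 40 genes may include reads of an overlapping protein-coding gene.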

Additional observations from a re-analysis of the deposited data

How the results depend on the processing

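The medians of the cell cycle genes moved in every alternative run by less than the spread between libraries (SD 0.425). This limit is wide, and leaving out 1 of 3 libraries could hardly exceed it, so it does not show stability. For 3 weekly exposures against sham the median fell from 0.52 to 0.16 without weekly library 1. All medians kept their sign in every alternative run. Single genes did not all keep theirs: 15 of 39 had the other sign in at least 1 alternative for 3 weekly exposures against sham, 4 for a single exposure against sham and 15 between the irradiated groups, at unadjusted p-values there of 0.122 or more. Against sham after 3 weekly exposures, limma on log2(FPKM + 1) and log2(FPKM + 0.1) gave -0.051 and -0.056 for Mcm7 and -0.040 and -0.042 for Pcna, and the second gave -0.039 for Foxm1 (1.08 in edgeR); after a single exposure they gave -0.083 and -0.10 for Foxm1 (0.81 in edgeR). With 1 library left out, changes that crossed 0 ran from -0.46 to 0.49 for Kif23, from -0.28 to 0.083 for Mcm6 and from -0.043 to 0.062 for Pcna after 3 weekly exposures, and from -0.81 to 0.097 for Cdca8 after a single exposure. The genes called by edgeR (0 in each comparison) became, with DESeq2, 89 for 3 weekly exposures against sham, 198 for a single exposure against sham and 5 for 3 weekly exposures against a single exposure. With limma on log2(FPKM + 0.1) they were 2, 5 and 1, with limma on log2(FPKM + 1) 3 for a single exposure against sham and 1 for 3 weekly exposures against a single exposure, and with the 6 libraries compared 9 for 3 weekly exposures against sham. Cell cycle genes at an unadjusted p under 0.05 ranged, with 1 library left out, from 1 to 14 for 3 weekly exposures against sham, from 5 to 23 for a single exposure against sham and from 0 to 7 for 3 weekly exposures against a single exposure; without sham library 1 and library 1 of the single exposure together the first 2 counts were 2 and 4. Between the irradiated groups the count of 0 became 1 with DESeq2, with no filter, with the 6 libraries compared and with the replicate block, and 3 with either limma setting. With the replicate block the counts against sham were 5 and 18. The labels do not state that the replicate numbers pair the libraries. Correlations of same-numbered libraries ran from -0.08 to 0.33, and without those of other pairs beside them they do not settle this. Medians with 1 library left out ran from 0.16 to 0.82 for 3 weekly exposures against sham, from 0.66 to 1.20 for a single exposure against sham and from -0.65 to -0.17 between the irradiated groups. The limma settings moved the median of all genes to -0.11 at most, and relative to it the cell cycle genes stood at -0.34 for 3 weekly exposures against a single exposure. The cause of these changes was not tested. Low counts limit the genes with under 10 fragments in a library, of which there are 6.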
